A study of Mus musculus with 8 samples.

Results

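Claudins and the proteins that bind them form the tight junction, and 9 of its genes were followed here in SOX4 knockout and control mammary tumor organoids. The 9 genes were Cldn1, Cldn2, Cldn3, Cldn4, Cldn6, Cldn7, Cldn12, Ocln and Tjp1, of the 38293 gene identifiers counted in bulk. They were chosen by name, with the SOX4KO against control differences of these same files in view, so that no p is given for them, and where a call of the fit across all genes is named for one of them it describes these lines and is not independent evidence. The rule itself set no threshold on any value.

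All organoids came from mammary tumors of mice carrying MMTV-PyMT, MMTV-Cre and Ecadherin-mCFP, and the control lines shared these alleles. In this model the MMTV promoter, which is active in mammary epithelium, drives the polyoma middle T oncogene and Cre, and E-cadherin carries a fluorescent tag. SOX4KO lines had been made with CRISPR/Cas9, and each line was a clone. Bulk RNA was sequenced from 2 control lines (WT1 and WT3) and 3 SOX4KO lines (H7, M4 and H4), and single cells from 1 control line (GR17) and 2 SOX4KO lines (GR18 and GR19). Organoids were grown for 4 days in Matrigel with FGF2. The age of the mice and the link between the bulk and single-cell lines are not given in the sources used here. A replicate is a clone, so the spread between lines includes differences between clones.

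Tight junctions seal the space between neighboring epithelial cells near their apical side. Claudins are membrane proteins that span the membrane several times and line the seal, where some close it and others form channels for ions and water. Occludin, a MARVEL domain protein, lies in the same strands. ZO-1, the product of Tjp1, is a scaffold under the membrane that ties claudins and occludin to actin. In the mammary gland tight junctions are mainly a feature of luminal cells, which face the duct, and less of the basal cells beneath them.

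The promoters of the members are shown first, with the short elements they hold. RefSeq (GRCm38.p6) gave 13 promoters for all 9 members, each of 300 bases, with 250 bases before and 50 after the start of a transcript. The search covered ACAAAG and ACAATG, which are forms of the SOX core, CACCTG, an E-box bound by SNAI and ZEB repressors, and AACCNGTT, bound by GRHL factors. Those were searched on both strands, and TATAAA, the TATA box, on the gene's strand alone. No matches overlapped in the member promoters. Positions count from the start of the transcript, with no position 0, and capitals mark the matches. The promoters printed are those of Cldn2 and Cldn1, which were called in bulk, and of Cldn3, Cldn7 and Ocln, whose SOX4KO lines also lay below both controls. For Cldn7 and Ocln the downstream of 2 listed starts is shown, and the windows of Ocln overlap. In order, the sequences lie at chrX:139800558-139800857 (plus strand), chr16:26371790-26372089 (minus), chr5:134985964-134986263 (plus), chr11:69965171-69965470 (plus) and chr13:100552449-100552748 (minus).
Cldn2: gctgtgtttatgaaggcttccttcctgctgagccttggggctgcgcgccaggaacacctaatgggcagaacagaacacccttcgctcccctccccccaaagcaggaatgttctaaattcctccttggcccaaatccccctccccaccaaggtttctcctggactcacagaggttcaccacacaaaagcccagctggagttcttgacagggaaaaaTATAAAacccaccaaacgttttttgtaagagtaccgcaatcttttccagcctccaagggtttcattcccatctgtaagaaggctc
Cldn1: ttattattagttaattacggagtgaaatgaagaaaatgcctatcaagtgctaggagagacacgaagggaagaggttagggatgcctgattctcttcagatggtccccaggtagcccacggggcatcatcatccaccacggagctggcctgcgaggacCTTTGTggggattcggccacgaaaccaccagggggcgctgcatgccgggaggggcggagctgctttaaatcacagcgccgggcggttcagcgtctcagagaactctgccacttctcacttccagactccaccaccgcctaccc
Cldn3: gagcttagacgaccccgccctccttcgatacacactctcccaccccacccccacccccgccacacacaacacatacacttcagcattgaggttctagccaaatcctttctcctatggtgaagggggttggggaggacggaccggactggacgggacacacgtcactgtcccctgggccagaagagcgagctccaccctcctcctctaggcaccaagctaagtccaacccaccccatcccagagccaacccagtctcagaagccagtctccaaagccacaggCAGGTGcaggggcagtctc
Cldn7: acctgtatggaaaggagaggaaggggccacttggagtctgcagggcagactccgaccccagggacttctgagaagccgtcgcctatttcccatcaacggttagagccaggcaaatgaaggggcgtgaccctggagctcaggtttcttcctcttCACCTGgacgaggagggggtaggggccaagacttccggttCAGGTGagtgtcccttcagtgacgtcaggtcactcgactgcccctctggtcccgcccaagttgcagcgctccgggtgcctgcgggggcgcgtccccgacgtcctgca
Ocln: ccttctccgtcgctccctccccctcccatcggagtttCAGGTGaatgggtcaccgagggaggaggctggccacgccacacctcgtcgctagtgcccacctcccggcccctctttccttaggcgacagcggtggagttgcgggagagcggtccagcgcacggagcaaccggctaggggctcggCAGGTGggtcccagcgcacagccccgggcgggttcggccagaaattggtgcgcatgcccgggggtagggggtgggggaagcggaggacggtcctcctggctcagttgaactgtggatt

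The Cldn2 promoter held TATAAA at position -35 and no other motif of the search. TATAAA stands in 8.32% of the 32851 mouse promoters searched, and among the members it was found in Cldn2 alone. The Cldn1 promoter held ACAAAG at position -93, and Cldn4 held it at -123. ACAAAG stands in 18.7% of all promoters. ACAATG, present in 12.6% of promoters, and AACCNGTT, present in 2.09%, were in none of the 13 member promoters. CACCTG was in 6 of the 13, against 20.2% of all promoters. It stood once in Cldn3, at position 32, and on both sides of the start in Cldn4 and Cldn6. The downstream Cldn7 promoter held it at -97 and -57, and the downstream Ocln promoter held it at -213 and -68. The match at -213 is the same site as the match at position 8 of the overlapping upstream window of Ocln. The promoters of Cldn12 and Tjp1 held none of the motifs. A match of letters is a description of the window and not a bound site.

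The bulk libraries held 3050323 to 4678497 reads on genes. Levels are given as CPM, counts scaled to a common library size with edgeR's TMM factors, and 1 CPM stood for 3.86 reads in WT1. The lines expressed Epcam, the epithelial adhesion molecule, at 593 to 865 CPM. The 7 fibroblast markers summed to 90.87 and 103 CPM in WT1 and WT3 and to 78.0, 49.3 and 77.1 CPM in H7, M4 and H4, every SOX4KO line below both controls, and their part in the results was not tested. The summed endothelial markers reached at most 4.68 CPM and the immune markers at most 14.4 CPM, in H7, while 4 of 5 adipocyte markers were at 0 in all lines. The summed level of 15 basal markers was 1527 to 2346 CPM in control lines and 2845 to 7569 CPM in SOX4KO lines. Sparc made up 1302 CPM of that sum in WT1. It had 5030 and 3678 reads in WT1 and WT3, and 14423, 14842 and 7067 reads in H7, M4 and H4. Of the 11 basal markers tested, 9 had a higher and 2 a lower fitted level in SOX4KO lines, 4 being called higher and 1 lower. Krt5 and Krt14 overlapped between the groups. The 20 luminal markers summed to 5783 to 5800 CPM in control lines and to 5695, 5786 and 10850 CPM in M4, H7 and H4. Lcn2 made up 2167 to 5891 CPM of that sum, and of the 17 luminal markers tested 11 had a lower and 6 a higher fitted level in SOX4KO lines, 3 being called lower (Cd24a, Cited1 and Prom1) and 1 higher (Esr1). Their log2 fold changes had a median of -0.51. Their part in the members' differences was not tested. In bulk, fewer cells of a type and less RNA per cell cannot be told apart. Sox4 RNA was 295 and 374 CPM in control lines and 199, 179 and 299 CPM in H7, M4 and H4, a log2 fold change of -0.57 ± 0.25 (SE) that was not called. Indels need not lower a transcript, so this level does not check the knockout.

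Of the 9 members, 7 passed the filter on low counts. Cldn2 and Cldn1 were called lower in SOX4KO (edgeR quasi-likelihood test, adjusted p under 0.1), and no member was called higher. Across all 11682 genes tested, 2.17% were called lower, 4.1% higher and 6.27% either way. For 5 of the 7 members, every SOX4KO line lay below both controls, which was the case for 17.9% of all genes, and 19% of all genes had every SOX4KO line above both. The groups overlapped for Cldn12 and Tjp1. The median log2 fold change of the 7 was -0.83, beside 0.01 for all genes. Because the members were chosen with this contrast known, these counts are a description.

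**Figure D1:**
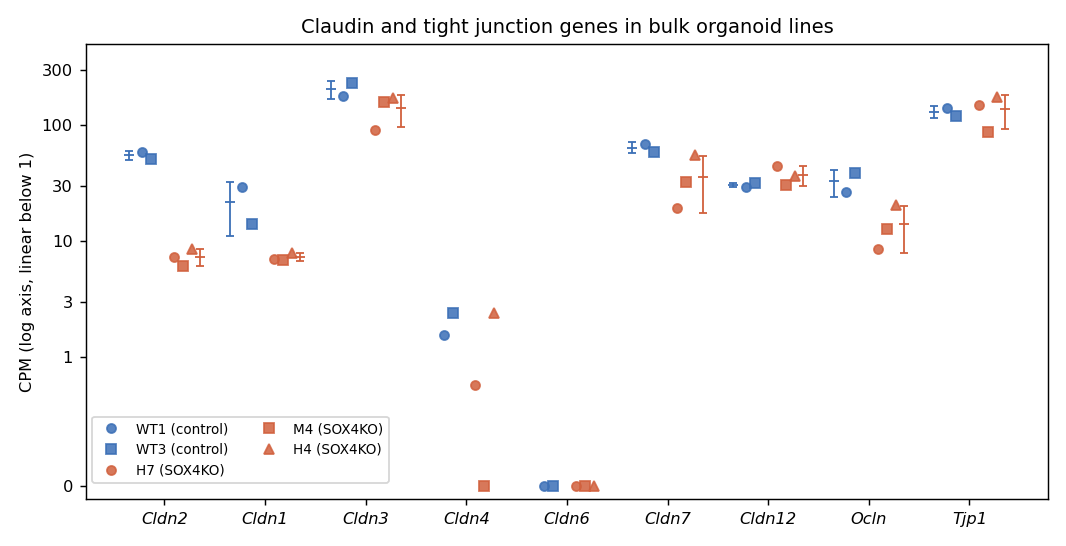
Level of each member in the 5 bulk lines, in CPM on a log axis that is linear below 1, with group mean and SD for the 7 genes that passed the filter. The SOX4KO lines (H7, M4, H4) lay near 6 to 9 CPM for Cldn2, against 58.5 and 51.2 CPM in the controls, while Tjp1 and Cldn12 overlapped between groups.

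Cldn2, the claudin that forms channels for cations and water, had the widest gap between groups. It stood at 58.5 CPM in WT1 and 51.2 CPM in WT3, and at 7.31, 6.12 and 8.62 CPM in H7, M4 and H4. The values within each group were close together and the groups lay far apart. The log2 fold change was -2.88 ± 0.22 (SE), which is 7.35-fold lower in SOX4KO. Behind it were 226 and 257 reads in the control lines and 17 to 36 reads in each SOX4KO line.

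Cldn1 is a claudin of the sealing kind. It was at 29.3 CPM in WT1 and 14.1 CPM in WT3, and at 7.05, 6.84 and 7.90 CPM in H7, M4 and H4. The controls lay further apart than the SOX4KO lines, which were close to each other. The log2 fold change was -1.56 ± 0.35 (SE). The call was lost without WT1, with a fold change of -0.96, and without H7, with -1.54.

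Cldn3 and Cldn7, both sealing claudins, had the highest levels of the claudins per kb of exon. Cldn3 was at 178 and 230 CPM in WT1 and WT3 and at 90.3, 157 and 171 CPM in H7, M4 and H4. H4 lay just under WT1, so the gap between the groups was small. The log2 fold change was -0.55 ± 0.27 (SE), and it was not called. Cldn7 was at 68.9 and 58.9 CPM in the controls and at 19.3, 32.4 and 55.3 CPM in H7, M4 and H4. H4 came close to WT3, and H7 was lowest. The log2 fold change of Cldn7 was -0.83 ± 0.37 (SE), and it was not called.

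Ocln, which encodes occludin, was at 26.7 and 38.8 CPM in the controls and at 8.61, 12.6 and 20.6 CPM in H7, M4 and H4. All SOX4KO lines lay below both controls, in the same order of lines as for Cldn7. The log2 fold change was -1.23 ± 0.35 (SE). It was not called by edgeR and was called by DESeq2.

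Cldn12, which lacks the usual PDZ-binding end by which claudins hold ZO-1, was at 29.5 and 31.5 CPM in the controls and at 44.6, 30.2 and 36.2 CPM in H7, M4 and H4. Tjp1 was at 141 and 119 CPM in the controls and at 150, 87.5 and 176 CPM in H7, M4 and H4. The groups overlapped for both genes, with SOX4KO lines on both sides of the controls for Tjp1 and M4 between the controls for Cldn12. The log2 fold changes were 0.28 ± 0.22 (SE) for Cldn12 and 0.09 ± 0.28 (SE) for Tjp1, and the sign of Tjp1 turned without WT3 (-0.03) and without H4 (-0.13).

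Cldn4 and Cldn6 did not pass the filter. Cldn4, a sealing claudin next to Cldn3 on chromosome 5, had 6 and 12 reads in WT1 and WT3 and 3, 0 and 10 reads in H7, M4 and H4. These counts were too low for a comparison. Cldn6, a claudin of embryonic epithelium, had 0 reads in all 5 lines. The limit that a count of 0 allows, 3 reads, is 0.777 CPM in WT1 and 0.598 CPM in WT3. In H7, M4 and H4 it is 0.783, 1.08 and 0.7185 CPM.

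Divided by the summed length of each gene's exons, the members could be ordered by level. In control lines Cldn3 stood highest at 162 CPM per kb, followed by Cldn7 at 32.8, Tjp1 at 16.7, Cldn2 at 16.5, Ocln at 7.76, Cldn12 at 7.21, Cldn1 at 4.48 and Cldn4 at 1.09 CPM per kb. Tjp1 and Cldn2 did not differ beyond the spread between lines, and neither did Ocln and Cldn12. In SOX4KO lines the order was Cldn3 at 111, Cldn7 at 18.3, Tjp1 at 17.6, Cldn12 at 8.75, Ocln at 3.30, Cldn2 at 2.21, Cldn1 at 1.5 and Cldn4 at 0.583 CPM per kb. There Cldn7 and Tjp1 lay within each other's spread. Cldn2 thus stood beside Tjp1 in control lines and beside Ocln in SOX4KO lines.

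Other genes of the junction were taken from a list of 63, of which 43 passed the filter. In that list 1 gene rose and 1 fell (edgeR, adjusted p under 0.1), beside 4.1% of all genes called higher and 2.17% lower. At an unadjusted p under 0.05 there were 4 higher and 6 lower, and the share of all genes at that p is not given here. The median log2 fold change was -0.22, beside 0.01 for all genes. The gene that fell was Prss8, which encodes a membrane-anchored protease, from 89.1 and 117.5 CPM to 47.8, 54.0 and 46.9 CPM (log2 fold change -1.06 ± 0.19 SE, edgeR adjusted p = 0.0288). Prss8 lost its call without WT3, and its fold change kept its sign.

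In the other roles no gene passed. Of 16 other claudins, 10 had no read in any line and only Cldn8 passed the filter, at 37.3 and 40.8 CPM in controls and 25.3 to 47.2 CPM in SOX4KO lines (edgeR adjusted p = 0.820). All 9 tested genes of other transmembrane proteins had fold changes below 0, with a median of -0.25, and 2 of them had an unadjusted p under 0.05. For 5 of the 9 the groups overlapped. The shares of all genes below 0 or at that p are not given here, so these counts are a description. F11r, which encodes the adhesion molecule JAM-A and was the highest of them, was at 249 and 247 CPM in controls and 207 to 228 CPM in SOX4KO lines (log2 fold change -0.17 ± 0.16 SE, edgeR adjusted p = 0.658). The 17 plaque proteins had a median of -0.01, and the highest of them, Amotl1, an angiomotin, was at 257 and 250 CPM against 267 to 395 CPM (edgeR adjusted p = 0.382). The 10 polarity proteins and GTPase regulators had a median of 0.06, with Prkci, the atypical protein kinase C of the polarity complex, at 184 and 163 CPM against 153 to 210 CPM (edgeR adjusted p = 0.810). Epcam was at 697 and 865 CPM in controls and 593 to 685 CPM in SOX4KO lines (log2 fold change -0.30 ± 0.19 SE, edgeR adjusted p = 0.473). Marveld2, which encodes tricellulin, had a log2 fold change of -0.94 and Tjp3, which encodes ZO-3, of -1.0. Both were called by DESeq2 and not by edgeR, where their adjusted p were 0.102 and 0.114.

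Transcription factors known to act on claudin or epithelial genes formed a list of 19, of which 15 passed the filter. Of these, 1 rose and 2 fell, beside 4.1% of all genes called higher and 2.17% lower. Ehf, an epithelial ETS factor, fell from 777 and 692 CPM to 268, 339 and 270 CPM (log2 fold change -1.33 ± 0.19 SE, edgeR adjusted p = 0.0146). Grhl1, a grainyhead-like factor of epithelial cells, fell from 108 and 111 CPM to 56.4, 50.4 and 62.8 CPM (log2 fold change -0.95 ± 0.17 SE, edgeR adjusted p = 0.0298). Snai2, which encodes the repressor Slug and is also expressed by basal mammary cells, rose from 24.3 and 18.3 CPM to 58.2, 57.2 and 36.6 CPM (log2 fold change 1.25 ± 0.27 SE, edgeR adjusted p = 0.0491). All 3 calls were lost when either control line was left out, with fold changes of the same sign. Among those not called, Tfap2c, an AP-2 factor, was at 134 and 174 CPM against 125 to 203 CPM (edgeR adjusted p = 0.938). Twist1, a repressor of epithelial genes, was at 32.9 and 36.3 CPM against 49.8 to 56.2 CPM (log2 fold change 0.59 ± 0.18 SE, edgeR adjusted p = 0.125). The part of the basal markers in these differences was not tested.

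**Figure D2:**
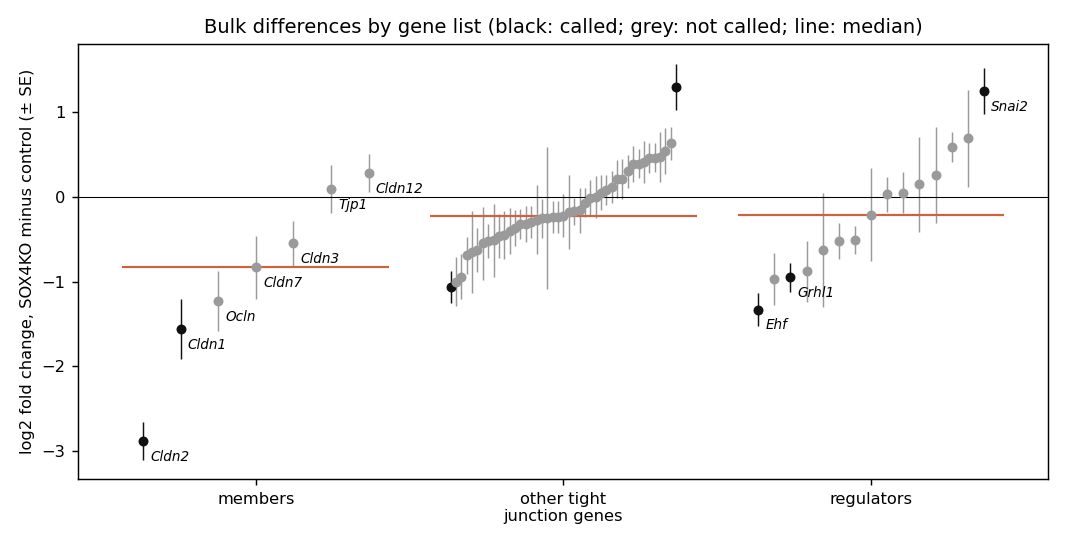
Log2 fold change of SOX4KO minus control in bulk with its SE, for 7 members, 43 other tight junction genes and 15 regulators, each list sorted by value. Black points were called at an adjusted p under 0.1, and the line in each list is its median (-0.83, -0.22 and -0.21).

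In single cells the same question could be asked by cell class. Each plate had 384 wells, named alike in all libraries, and 369, 369 and 362 wells with at least 1000 UMIs were kept in GR17, GR18 and GR19. They held 7714119 to 8296953 UMIs per library, with a median of 19845 to 21876 UMIs per well. Adipocyte markers were not counted in any library, and the 7 immune markers summed to at most 2.72 CPM. The 15 basal markers summed to 5126 CPM in GR17, 5287 CPM in GR18 and 2991 CPM in GR19. The 20 luminal markers summed to 5319, 8698 and 10710 CPM in the same order. With 1 control library there is no test, and the intervals given are exact Poisson intervals at 95% that cover counting error only. Sox4 was at 118 CPM in GR17, 82.5 CPM in GR18 and 110 CPM in GR19.

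Summed over all cells of a library, 4 of the 9 members reached 20 CPM on average. None of the 4 was 2-fold higher or lower than GR17 in both SOX4KO libraries, whereas of 6303 genes 0.317% were 2-fold lower, 1.92% higher and 2.24% either way. Tjp1 was at 46.4 CPM (41.7 to 51.5) in GR17, 52.8 CPM (47.9 to 58.1) in GR18 and 59.9 CPM (54.8 to 65.4) in GR19. Cldn12 was at 15.3 CPM (12.7 to 18.3), 24.6 CPM (21.3 to 28.3) and 27.2 CPM (23.8 to 31.0) in the same order. Cldn12 was thus higher in both SOX4KO libraries beyond counting error. Cldn3 was at 32.4 CPM (28.5 to 36.7), 37.0 CPM (32.9 to 41.4) and 40.9 CPM (36.6 to 45.4). Cldn7 was at 35.9 CPM (31.8 to 40.4) in GR17, 22.0 CPM (18.8 to 25.5) in GR18 and 43.3 CPM (38.9 to 48.0) in GR19, so that the SOX4KO libraries lay on both sides of the control.

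The other members were sparse. Cldn2 had 56 UMIs in GR17, 12 in GR18 and 10 in GR19, or 7.26 CPM (5.48 to 9.43), 1.5 CPM (0.774 to 2.62) and 1.21 CPM (0.578 to 2.22). The ratio to GR17 was 0.206 (0.101 to 0.390) in GR18 and 0.166 (0.0755 to 0.328) in GR19. Cldn2 was below the 20 CPM minimum, and is set apart here because both intervals lie under 0.5. Ocln had 20, 9 and 27 UMIs in GR17, GR18 and GR19. Cldn1 had 1, 5 and 7 UMIs, Cldn4 had 9, 5 and 10, and Cldn6 had 0, 0 and 1, which is too few for a comparison. Wells under 1000 UMIs held 1 member UMI in GR17 and 0 in GR18 and GR19.

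**Figure D3:**
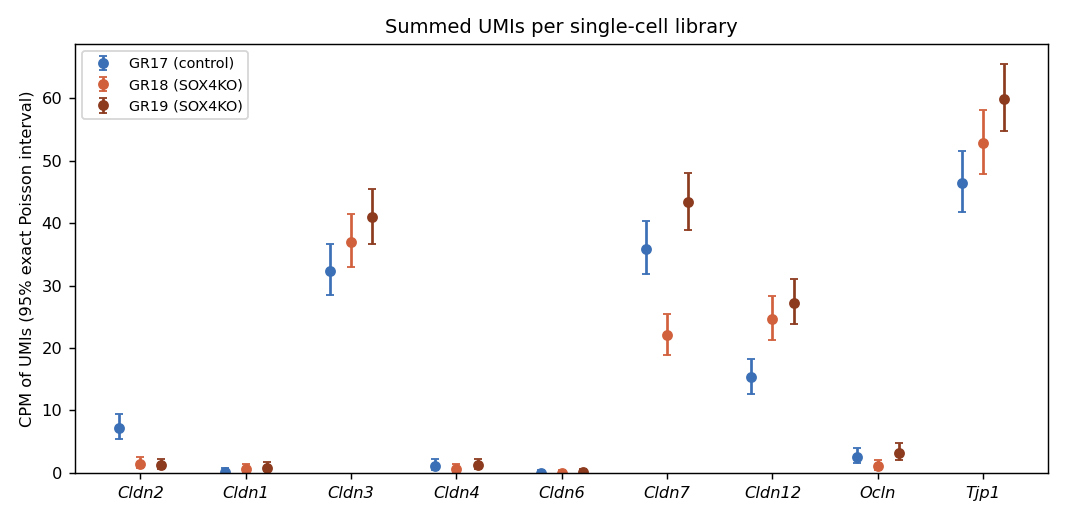
Level of each member in the 3 single-cell libraries, as CPM of UMIs summed over kept wells, with exact Poisson intervals at 95%. Cldn2 was at 7.26 CPM in the control GR17 and under 2 CPM in GR18 and GR19, while Cldn3, Cldn12 and Tjp1 were somewhat higher in the SOX4KO libraries.

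Cells were clustered without the 9 members and the 63 other tight junction genes, so that none of these shaped the clusters. This gave 6 clusters, lettered A to F by size. Clusters D (139 cells) and E (131 cells) carried luminal markers, with summed luminal levels 13.0 and 18.6 times the basal ones, against 0.590 to 1.16 times in the others. Csn3, a milk casein, stood at 1999 and 2716 CPM in D and E, and Elf5, a factor of milk-forming luminal cells, at 71.2 and 98.7 CPM, so both are called luminal-like. These levels pool the libraries, and most Elf5 UMIs came from GR19. Over all cells there were 81, 104 and 626 of them in GR17, GR18 and GR19. D differed from E in its cell cycle genes, with 50 G2M genes summing to 5561 CPM in D and 1785 CPM in E. Clusters A, B, C and F were left unnamed and held Krt5 and Krt14, the keratins of basal cells, at 1346 to 2761 CPM, against 67.8 to 289 CPM in D and E. A was led by Krt17 and B by Postn, while S-phase genes made up 3 of the 10 leading genes of C and G2M genes 6 of the 10 of F. Of the 346 cells of A, 330 came from GR17, so A may be that library rather than a kind of cell. The luminal-like clusters held 30 cells of GR17, 108 of GR18 and 132 of GR19.

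The CPM level of Cldn3 and Cldn7 was higher in luminal-like cells of every library, whereas Cldn12 and Tjp1 were at closer levels in both classes. In GR17, with 30 luminal-like cells, those cells nevertheless held only 25.6% of the Cldn3 UMIs and 37.2% of the Cldn7 UMIs, against 78.7% and 95.5% in GR18 and 79.1% and 86.1% in GR19. In GR17 Cldn3 was at 94.8 CPM in luminal-like cells and 26.4 CPM in the others, a ratio of 3.59 (2.66 to 4.79). In GR18 it was at 88.7 against 11.7 CPM, a ratio of 7.58 (5.72 to 10.2), and in GR19 at 75.3 against 15.0 CPM, a ratio of 5.02 (3.85 to 6.62). The ratio for Cldn7 was 6.17 (4.79 to 7.92) in GR17, 43.0 (21.3 to 101) in GR18 and 8.22 (6.08 to 11.3) in GR19. For Tjp1 the ratio was 1.17 (0.802 to 1.65), 1.34 (1.09 to 1.63) and 1.40 (1.17 to 1.68), and for Cldn12 it was 0.861 (0.383 to 1.70), 1.13 (0.831 to 1.52) and 1.13 (0.865 to 1.49). Both clusters D and E shared this pattern in the SOX4KO libraries. Cldn3 was at 65.7 and 116 CPM in D and E of GR18, and at 70.2 and 84.1 CPM in GR19, against 5.33 to 19.97 CPM in B, C and F. Cldn7 was among the 10 leading genes of D, although it was not used to build it. Ocln and Cldn2, on fewer UMIs, were also higher in luminal-like cells. The ratio for Ocln was 8.53 (3.12 to 22.6), 16.4 (2.2 to 727) and 3.16 (1.32 to 8.34) in GR17, GR18 and GR19. For Cldn2 it was 6.26 (3.46 to 11.1), 10.2 (2.18 to 96.2) and 2.0 (0.473 to 9.61), where the GR19 interval covers equal levels.

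Within the classes Cldn7 lay lower in both SOX4KO libraries, although over all cells it did not. Cldn7 in luminal-like cells was at 153 CPM (125 to 185) in GR17, from 103 UMIs in 30 cells. It was at 64.0 CPM (54.7 to 74.4) in GR18 and 86.8 CPM (77.4 to 97.0) in GR19, from 168 and 309 UMIs. In the other cells it was at 24.7 CPM in GR17, 1.49 CPM in GR18 and 10.6 CPM in GR19. Both SOX4KO libraries were thus lower in both classes, while over all cells GR19 stood above GR17. The luminal-like class held 30 of 369 kept cells in GR17 and 132 of 362 in GR19. The other cells were mostly cluster A in GR17 and clusters B, C and F in GR18 and GR19, so this comparison sets different clusters side by side.

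Cldn2 in luminal-like cells was at 31.1 CPM in GR17 (21 UMIs), 3.81 CPM in GR18 (10 UMIs) and 1.69 CPM in GR19 (6 UMIs). In the other cells it was at 4.97 CPM in GR17 (35 UMIs), 0.372 CPM in GR18 (2 UMIs) and 0.845 CPM in GR19 (4 UMIs). Of the 21 UMIs in luminal-like cells of GR17, 16 came from the 15 cells of cluster E. Of the 7 members compared in bulk, Cldn2 lay lower in SOX4KO in bulk, over all cells and in both classes.

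Ocln in luminal-like cells was at 13.3 CPM in GR17 (9 UMIs), 3.05 CPM in GR18 (8 UMIs) and 5.34 CPM in GR19 (19 UMIs). In the other cells it was at 1.56, 0.186 and 1.69 CPM, from 11, 1 and 8 UMIs. Cldn3 in luminal-like cells was at 94.8, 88.7 and 75.3 CPM, with intervals that overlapped, and in the other cells at 26.4 CPM in GR17 against 11.7 and 15.0 CPM in GR18 and GR19. Cldn12 was higher in the SOX4KO libraries in both classes, at 26.6 and 29.2 CPM against 13.3 CPM in luminal-like cells and at 23.6 and 25.8 CPM against 15.5 CPM in the others, where the first comparison rests on 9 UMIs in GR17. Tjp1 was at 53.3, 63.6 and 71.6 CPM in luminal-like cells and at 45.7, 47.6 and 51.1 CPM in the others.

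The control values within luminal-like cells depended on how cells were divided. With 20 principal components, 153 cells of GR17 fell in luminal-like clusters and held 195 of its 250 Cldn3 UMIs, and Cldn7 there was at 71.7 CPM, between 64.2 CPM in GR18 and 86.2 CPM in GR19. Cldn3 in the other cells was then at 11.5 CPM in GR17, against 11.4 and 14.9 CPM, so that the SOX4KO libraries were no longer clearly lower. Cldn2 was at 12.2 CPM in those luminal-like cells of GR17, against 3.48 and 1.66 CPM. When each well was instead placed by its own ratio of luminal to basal marker UMIs, 86 wells of GR17 were luminal-like, with 96.8 CPM of Cldn7 against 57.4 and 77.4 CPM, and 13.1 CPM of Cldn2 against 3.34 and 1.68 CPM. In that division 46, 40 and 61 wells of GR17, GR18 and GR19 lay within 1.5 times of the dividing ratio. Cldn2 was lower in both SOX4KO libraries under all of these divisions, whereas for Cldn7 in luminal-like cells GR19 was not lower with 20 components.

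**Figure D4:**
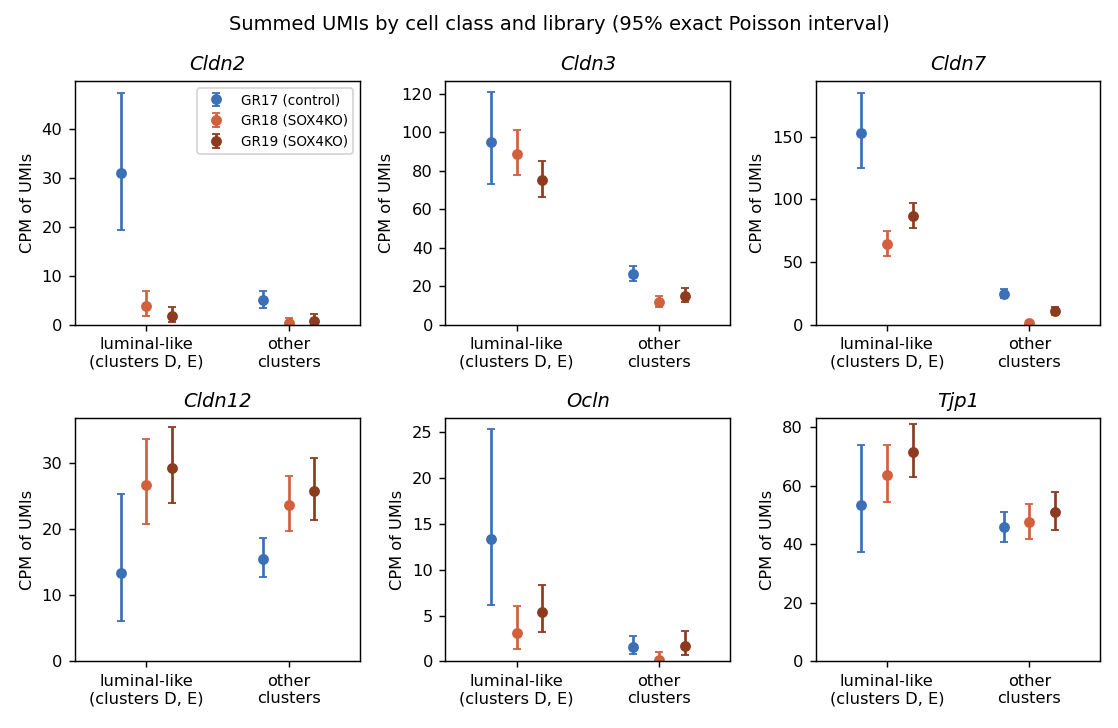
Level of 6 members in luminal-like cells (clusters D and E) and in all other cells of each single-cell library, as CPM of UMIs with exact Poisson intervals at 95%. Cldn7 was at 153 CPM in luminal-like cells of GR17, against 64.0 and 86.8 CPM in GR18 and GR19, and Cldn2 at 31.1 CPM against 3.81 and 1.69 CPM. With 20 principal components Cldn7 in luminal-like cells was instead at 71.7 CPM in GR17, against 64.2 and 86.2 CPM.

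The genes most like the 4 more abundant members were found over 11 sums of at least 20 cells by cluster and library, among 6271 genes. In GR17 only cluster A had that many cells, so the other sums were of SOX4KO libraries. No luminal-like sum of the control was among them. The likeness is Pearson's r of log2 CPM with 10 CPM added, and the sums share libraries and 1 division into clusters. For Cldn3 they were Cd14 (r = 0.97), Krt19 (0.96) and Tspan1 (0.96), of which Cd14 and Krt19 were among the luminal markers. For Cldn7 they were Efna5 (0.96), Mpzl1 (0.96) and Krt18 (0.96), for Tjp1 Gpd1l (0.92), Abi1 (0.90) and Krt8 (0.89), and for Cldn12 Vps35 (0.89), Stk39 (0.84) and Rmdn3 (0.81). A luminal keratin stood among the 3 for Cldn3, Cldn7 and Tjp1, and not among those for Cldn12.

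In the same libraries, 28 of the 63 other genes of the junction reached 20 CPM, and 0 of the 28 were 2-fold higher or lower in both SOX4KO libraries, with medians of 0.01 (log2) in GR18 and in GR19. Of the 19 regulators, 9 reached 20 CPM and none was past 2-fold in both. Ehf was at 72.1 CPM in GR17, 122 CPM in GR18 and 77.4 CPM in GR19, and Snai2 at 78.0, 123 and 99.9 CPM. Grhl1, under the minimum, was at 11.1, 15.4 and 21.3 CPM. Ehf and Grhl1, called lower in bulk, thus lay above GR17 in both SOX4KO libraries. Their log2 differences in GR18 and GR19 were 0.75 and 0.1 for Ehf and 0.43 and 0.88 for Grhl1. This difference in sign from bulk was not tested. Prss8 was at 25.7, 31.2 and 24.2 CPM. Under the minimum, Igsf5, which encodes a junctional adhesion protein, had 7, 31 and 44 UMIs in GR17, GR18 and GR19, log2 differences of 1.35 and 1.72. In bulk the groups overlapped for Igsf5 (log2 fold change -0.18 ± 0.44 SE, edgeR adjusted p = 0.877). Cldn8, also under it, was at 7.52 CPM in GR17, 14.1 CPM in GR18 and 26.0 CPM in GR19.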

How the data were processed

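For the bulk lines (directional, poly(A)-selected libraries) the authors deposited HTSeq counts per gene, and for the plates counts of UMIs by gene and well. Neither had been normalized. Per the labels' processing notes, STAR 2.4.2a and builds NCBIM37 and mm9 were used. HTSeq rows that name no gene held 71.6% to 83.9% of entries and were left out, as were ERCC rows. Of 38293 identifiers, 36345 had a symbol in GENCODE (GRCm38), which also gave exon lengths. Whether HTSeq used strand is not given in the sources used here.

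For bulk, edgeR 4.0.16 in R 4.3.3 was run on the counts of all genes (low counts removed by filterByExpr, TMM scaling, quasi-likelihood F test, Benjamini-Hochberg, adjusted p under 0.1). The SE is the absolute fold change divided by the root of F. DESeq2 1.42.0 was an alternative. In simulated counts edgeR recovered 184 of 200 genes changed 3-fold among 11682, with 12 false calls. The simulation gave every gene the same dispersion between lines, so these rates need not hold for the lines sequenced. Single-cell UMIs were summed per library, and log2 differences used 1 CPM added. Clusters came from Seurat 5.3.0 (LogNormalize, 2000 variable genes, 10 principal components, 20 neighbours, resolution 0.5, genes in at least 3 cells). Luminal-like clusters had luminal markers over 3 times basal ones, a ratio set after seeing the data. No doublet caller was run. In simulated sums all 200 of 200 changed genes, of 6303, were past 2-fold.

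The members and lists were chosen with earlier results of these data known. Of the lists, every called gene and, per role, the most abundant gene not called were named, with Marveld2, Tjp3, Igsf5, the luminal markers and single-cell values of some genes added after their values were seen. A called gene of the tight junction list is not reported here by name. Alternatives covered normalization, filters, thresholds, UMI minimums, clustering and each line left out.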

Additional observations from a re-analysis of the deposited data

Results flagged for a closer look

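Cldn3 differed in sign between the 2 kinds of data when all cells were summed. In bulk every SOX4KO line lay below both controls, with a log2 fold change of -0.55, while both SOX4KO single-cell libraries lay above GR17, with log2 differences of 0.18 and 0.33. The bulk difference was not called, and the GR18 ratio of 1.14 (0.96 to 1.35) was within counting error. Within classes Cldn3 was lower in both SOX4KO libraries than in GR17 with 10 principal components, at 88.7 and 75.3 against 94.8 CPM in luminal-like cells and at 11.7 and 15.0 against 26.4 CPM in the others, although the luminal-like intervals overlapped. With 20 principal components the luminal-like level was instead 66.2 CPM in GR17 against 90.5 and 74.6 CPM, and that of the others 11.5 against 11.4 and 14.9 CPM. With wells split by their own marker UMIs, the luminal-like level was 76.9 CPM in GR17 against 81.4 and 67.3 CPM. That of the others was then 17.8 against 10.4 and 14.1 CPM. The difference between the kinds of data was not tested, they differ in method, and whether they share lines is not given in the sources used here.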

How the results depend on the processing

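Of the other tight junction genes, 2 were called with edgeR, 4 with DESeq2, 7 with a filter of at least 1 count, and 0 to 7 with 1 line left out (0 without WT3, 1 without WT1, 7 without H4). Of the regulators, 3 were called, 5 with at least 1 count, and 0 to 3 with 1 line left out (0 without WT1 or WT3). Of the members, 2 were called, 5 with at least 1 count, 1 at an adjusted p under 0.05, and 1 to 4 with 1 line left out (1 without WT1 or H7, 4 without H4). The members' median log2 fold change stayed between -1.32 (without H4) and -0.53 (without H7), and the log2 fold change of Tjp1, 0.09 with all lines, ranged from -0.13 (without H4) to 0.32 (without M4), and was also below 0 without WT3 (-0.03). The cause was not tested. DESeq2 size factors moved no count. Across all genes, 6.27% were called either way in the main fit. That share is not given here for the alternatives, so the counts under them are a description. No member at or above the CPM minimum was past 2-fold in the SOX4KO single-cell libraries compared under any alternative tried, with UMI minimums of 500 and 2000, 10 CPM added, a 50 CPM minimum (1 member left), the deepest wells left out, or 1 SOX4KO library left out. Cldn3 and Cldn7 were the 2 of 4 members more than 2-fold higher in the most luminal than in the most basal cluster of both SOX4KO libraries, also at resolution 0.3 and with 20 components. The share of all genes past that rule is not given here, so this count is a description of the members. With each well thinned to 8000 UMIs, the share of cells with a Cldn7 UMI went from 31.4% to 17.9% in GR17, from 19.8% to 13.4% in GR18 and from 36.7% to 24.4% in GR19. The divisions by 20 components and by marker UMIs, and those without the deepest wells or at resolution 0.3 within classes, were chosen after seeing the data. No paired analysis was run because the labels give no pairing of lines. The main limits are 2 control clones in bulk, 1 control library and 30 luminal-like control cells.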
